A study of Mus musculus with 8 samples.

Results

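Genes of Schwann cells and of the peripheral myelin sheath were followed in mouse belly skin: Mbp, Pmp22, Prx, S100b, Sox10 and Ncam1. Of these 6 genes, 5 were among the 18193 gene symbols that the array's annotation gives alone to a probe set. Their members are the array probe sets annotated to exactly 1 of these symbols, which gave 21 of 45037 probe sets: 8 for Mbp, 7 for Ncam1, 3 for Sox10, 2 for S100b and 1 for Pmp22. Prx had 0 such probe sets, so it has no value here. The hurpin-transgenic group was made up of 4 mice, females 7 and 84 with males 11 and 17. Its wildtype counterpart had 3 mice, males 26 and 28 with female 29. All were 8 months old, and total RNA from belly skin of each was hybridised to Affymetrix mouse arrays, with wildtype 29 on 2 arrays, which were averaged. Hurpin, also called SERPINB13, is a serpin of stratified epithelia that inhibits the protease cathepsin L, and the promoter and founder line of the transgene are not given in the sources used here. No other allele or treatment is named for either group.

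Schwann cells ensheath the axons of peripheral nerves, which enter the skin to supply hair follicles, vessels, glands and the epidermis. A myelinating Schwann cell wraps 1 stretch of axon in a compact sheath whose proteins include Pmp22 and Mbp, and Prx (periaxin) anchors the outer membrane to the basal lamina. Sox10 is the transcription factor that the lineage needs throughout, and with Egr2 it switches on myelin genes. S100b is a calcium-binding protein of glia, and Ncam1 is an adhesion molecule that is kept on non-myelinating Schwann cells and lost from myelinating ones. None of the member genes belongs to these cells alone: melanocytes use Sox10 and S100b, adipocytes S100b, fibroblasts and epithelia Pmp22, and muscle synapses and natural killer cells Ncam1.

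Pmp22 has several transcription start sites, and in rodents an upstream promoter is known for its use in myelinating Schwann cells and a downstream one for wider use. RefSeq (GRCm38.p6) gives 4 windows for it, each of 300 bases from 250 before to 50 after a start. The first and the last are shown because a single probe set measured the gene, so that the values below are not resolved by start site. Capitals mark CG dinucleotides, and both windows read 5′ to 3′ on the + strand.
Pmp22 first start, chr11:63128732-63129031: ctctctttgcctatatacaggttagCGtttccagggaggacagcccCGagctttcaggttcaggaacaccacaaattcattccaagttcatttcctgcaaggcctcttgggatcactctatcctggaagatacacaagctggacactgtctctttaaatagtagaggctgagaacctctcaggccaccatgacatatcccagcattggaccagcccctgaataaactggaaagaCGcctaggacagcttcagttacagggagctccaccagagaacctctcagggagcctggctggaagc
Pmp22 last start, chr11:63132553-63132852: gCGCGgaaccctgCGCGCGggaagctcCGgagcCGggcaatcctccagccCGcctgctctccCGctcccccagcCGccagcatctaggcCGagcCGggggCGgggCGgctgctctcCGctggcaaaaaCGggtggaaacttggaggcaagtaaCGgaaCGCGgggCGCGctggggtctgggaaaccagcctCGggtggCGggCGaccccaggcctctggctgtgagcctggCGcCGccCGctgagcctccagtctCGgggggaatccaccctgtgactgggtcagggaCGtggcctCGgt
The first window held 3 CG dinucleotides at 50.7% G and C, and 31.4% of 32851 promoter windows held as few or fewer. The last held 30 at 72.3% G and C, and 11.7% of windows held as many or more. The windows of S100b (chr10:76253586-76253885) and Prx (chr7:27499074-27499373), both on the + strand, held 3 CG dinucleotides each. Neither TATAAA nor the SOX-type words ACAAAG and ACAATG occurred on either strand of the windows of Pmp22, S100b and Prx, against 13.6%, 18.7% and 12.6% of all windows. ACAAAG and ACAATG share their first 4 letters and cannot both match at 1 place.

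Values are log2 of the deposited signal intensity plus 21.8, and differences are transgenic minus wildtype on that scale, which understates the change of dim probe sets. Of the 21 member probe sets, 14 had a mean log2 of at least 6.45, the 40th percentile, and were tested: 7 for Mbp, 2 each for S100b, Sox10 and Ncam1, and 1 for Pmp22. The summed intensity of an array was 34785081 at the lowest and 37857733 at the highest, and precision was limited by how few arrays there were. Both arrays of wildtype 29 differed by a median of 0.25 log2 over the 14 probe sets and by 0.19 over all 27022 probe sets tested. The log2 ratio of 3′ to 5′ signal of the array control Gapdh, a measure of how far labelled targets reach along the transcript, was 3.79, 4.11, 0.54 and 2.23 in transgenic 7, 84, 11 and 17. It was 0.20, 0.05 and 0.19 in wildtype 26, 28 and 29. Transgenic animals averaged 2.67 ± 1.64 and wildtype animals 0.15 ± 0.08 (SD, n = 4 and 3; 2-sided exact permutation p = 0.0571, which no split of the 35 could undercut). For members and named genes whose direction turned when this ratio was added to the model, that value is given beside the result. All transgenic ratios were above all wildtype ratios, so that model cannot fully separate the ratio from the group.

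Schwann cell markers were present in this skin. Of the 9 markers measured, 8 passed the level filter, and Mag, the myelin-associated glycoprotein, was below it. Mag was at 5.94, 5.81, 5.86 and 7.09 log2 in transgenic 7, 84, 11 and 17 and at 7.77, 6.69 and 5.74 in wildtype 26, 28 and 29. The summed intensity of the Schwann cell markers was 12783 to 17201 in transgenic and 11870 to 17312 in wildtype animals. Pmp22, Erbb3 and Mbp, with means of 12.7, 11.8 and 11.2 log2, weigh most in that sum. Epithelia also carry Pmp22 and Erbb3, so the sum is not a measure of Schwann cells alone. Of 7 markers of central myelin only Opalin passed the filter, and Mog, Mobp, Cldn11, Olig1 and Olig2 did not. Of 9 axon and neuron markers, Tubb3 and Stmn2 passed and the neurofilaments did not. In bulk skin, fewer cells of a type and less RNA per cell cannot be told apart.

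No member gene passed the test between transgenic and wildtype skin, and its values overlapped between the groups in every probe set tested. By limma with Benjamini-Hochberg adjustment over all probe sets tested, 0 of the 14 member probe sets had an adjusted p under 0.05 (adjusted p between 0.484 and 0.965), where 0.0148% of all 27022 were called. At an unadjusted p under 0.05 the count was also 0 of 14, where 11.7% of all probe sets passed. The transgenic and wildtype animals overlapped in all 14, where 11.3% of all probe sets showed no overlap in 1 direction or the other. Differences lay above 0 for 9 probe sets and below 0 for 5, with a median of 0.10 against 0.001 over all probe sets tested. In 7 of the 14 the difference was larger than the gap between both arrays of wildtype 29, as it was in 14884 of all 27022 probe sets tested.

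**Figure D1:**
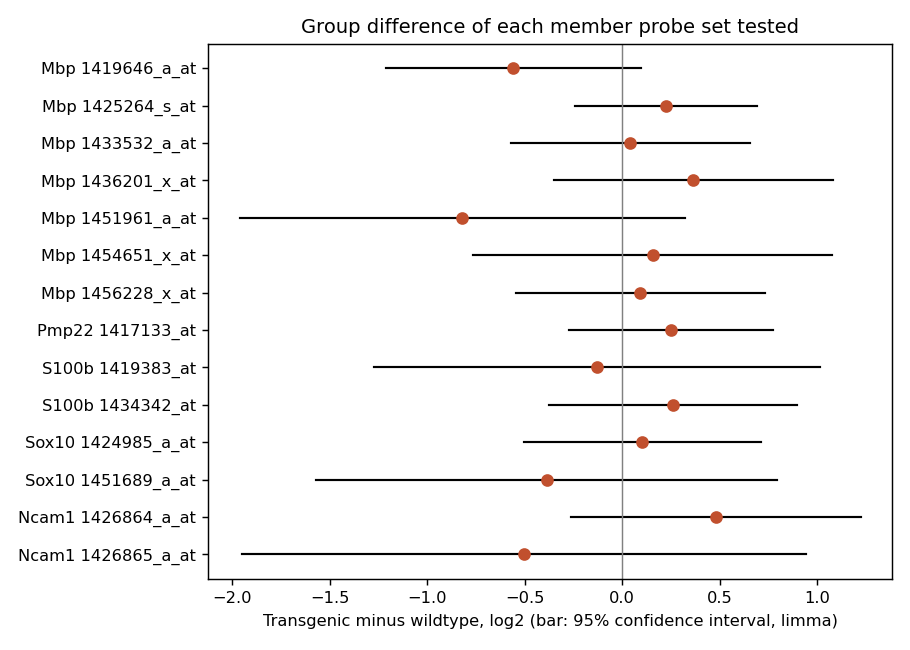
Difference in log2 signal, transgenic minus wildtype (x axis), of the 14 member probe sets tested (y axis), with points for the estimate and bars for the limma 95% confidence interval. Every interval spans 0; the estimates lie between -0.82 (Mbp 1451961_a_at) and 0.48 (Ncam1 1426864_a_at).

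Pmp22, a membrane protein of compact myelin whose dosage is critical in human neuropathy, was measured by 1 probe set (1417133_at). Its signal intensity was 6746, 7363, 6396 and 9353 in transgenic 7, 84, 11 and 17, against 8965, 5658 and 4700 in wildtype 26, 28 and 29. Transgenic 17 and wildtype 26 were the highest animals and lay close together, and wildtype 28 and 29 were below every transgenic animal. The log2 means were 12.85 ± 0.24 in the transgenic and 12.60 ± 0.48 in the wildtype animals (SD, n = 4 and 3). The difference was 0.25 (95% confidence interval -0.27 to 0.77, SE 0.23; limma adjusted p = 0.690). It was 0.52 without wildtype 26 and 0.05 without wildtype 29, so its size moved with each of these animals, with adjusted p of 0.265 and 0.963 by limma.

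Mbp, which seals the cytoplasmic faces of the myelin membrane and also has non-myelin transcripts from an upstream start, was measured by 8 probe sets. The probe set chosen for its highest mean signal, 1433532_a_at, had intensities of 2484, 2292, 1787 and 3009 in transgenic 7, 84, 11 and 17, against 3332, 2309 and 1545 in wildtype 26, 28 and 29. The wildtype animals held both the highest and the lowest value, and all 4 transgenic animals lay between them. The log2 means were 11.21 ± 0.31 in the transgenic and 11.17 ± 0.55 in the wildtype animals (SD, n = 4 and 3), with a difference of 0.04 (95% interval -0.57 to 0.65; limma adjusted p = 0.965). With the Gapdh ratio in the model it was -0.18 (limma adjusted p = 0.99999).

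The 7 tested Mbp probe sets did not point 1 way. The estimate was above 0 for 5 of them, between 0.04 and 0.37, and below 0 for 1419646_a_at and 1451961_a_at. Adding the Gapdh ratio to the model gave -0.058 for 1425264_s_at and -0.27 for 1456228_x_at, which were at 0.22 and 0.09 without it. Probe set 1419646_a_at gave 9.13, 9.52, 9.61 and 9.66 log2 in transgenic 7, 84, 11 and 17, against 10.71, 9.97 and 9.43 in wildtype 26, 28 and 29. Wildtype 26 and 28 were above all transgenic animals and wildtype 29 was within their range. Its difference of -0.56 (95% interval -1.21 to 0.10) had the lowest p among the members, 0.0856 before and 0.484 after adjustment in limma, and was -0.22 without wildtype 26. Probe set 1451961_a_at gave 7.24, 6.43, 7.98 and 5.60 log2 in transgenic 7, 84, 11 and 17, against 7.64, 7.78 and 7.47 in wildtype 26, 28 and 29. The wildtype animals were close together and the transgenic animals lay on both sides of them, with a difference of -0.82 (95% interval -1.96 to 0.32; limma adjusted p = 0.544). It was -0.41 without transgenic 17, -1.21 without transgenic 11 and -0.18 with the Gapdh ratio in the model (limma adjusted p of at least 0.191).

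The Mbp probe sets differed in how closely they tracked 1433532_a_at across animals. Probe set 1456228_x_at followed it with a Pearson r of 0.97 over the 7 animals, 1436201_x_at with 0.84 and 1454651_x_at with 0.80, while 1425264_s_at had an r of 0.58, 1419646_a_at of 0.55 and 1451961_a_at of -0.40. These values are descriptions over animals that share every array. Affymetrix marks with x the probe sets whose probes can also match other sequences, so the levels of those 3 are less certain. Probe set 1425263_a_at was below the level filter and was not tested: it gave 5.21, 5.04, 7.21 and 7.07 log2 in transgenic 7, 84, 11 and 17, against 6.46, 5.998 and 7.18 in wildtype 26, 28 and 29. Here both transgenic females, whose Gapdh ratios were the highest, had the lowest values and both transgenic males lay near wildtype 29. Its difference was -0.41, and 0.59 without transgenic 7 and 84, and the part of the Gapdh ratio was not tested.

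**Figure D2:**
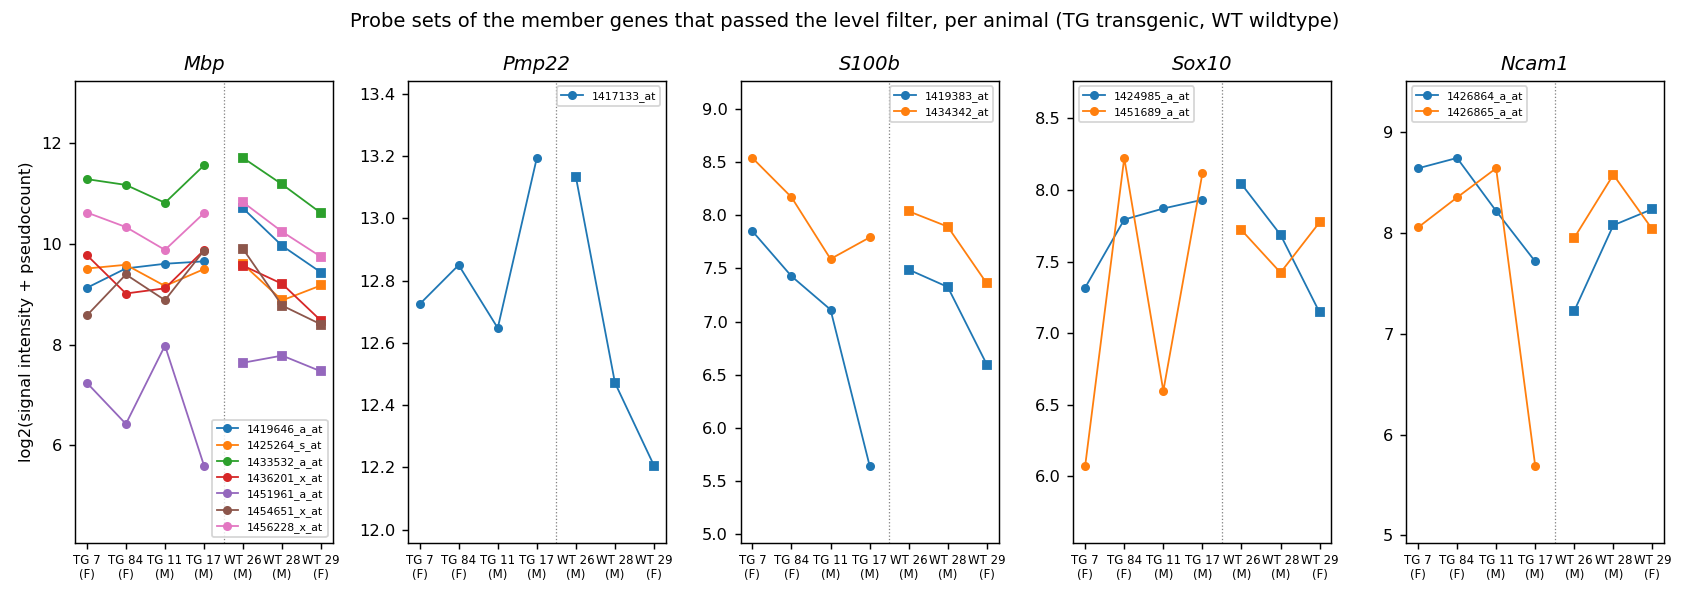
Log2 of signal intensity plus the pseudocount (y axis) of the 14 member probe sets that passed the level filter, in each of the 4 transgenic (circles) and 3 wildtype (squares) animals (x axis, F female, M male). Lines only join the points of 1 probe set within a group, since animals have no order; in every panel the transgenic and wildtype points overlap, and Pmp22 is highest in transgenic 17 and wildtype 26.

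S100b, the calcium-binding glial protein, was measured by 2 probe sets, and both passed the filter. Probe set 1434342_at gave intensities of 351, 267, 171 and 199.9 in transgenic 7, 84, 11 and 17, against 241, 216 and 142 in wildtype 26, 28 and 29. The transgenic females were above all other animals and the transgenic males were below both wildtype males. The log2 means were 8.02 ± 0.42 in the transgenic and 7.76 ± 0.36 in the wildtype animals (SD, n = 4 and 3), a difference of 0.26 (95% interval -0.38 to 0.90; limma adjusted p = 0.742). It was -0.30 with the Gapdh ratio in the model (limma adjusted p = 0.99999) and -0.07 without transgenic 7 and 84 (adjusted p = 0.976). Probe set 1419383_at gave 7.85, 7.43, 7.11 and 5.64 log2 in transgenic 7, 84, 11 and 17, against 7.49, 7.33 and 6.59 in wildtype 26, 28 and 29. Its difference was -0.13 (95% interval -1.27 to 1.02; limma adjusted p = 0.943), and 0.33 without transgenic 17, the lowest animal.

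Both S100b probe sets had estimates of opposite sign in the sexes. In females the difference was 0.998 for 1434342_at and 1.05 for 1419383_at, from transgenic 7 and 84 against the single wildtype female, 29. In males it was -0.28 and -1.03, from transgenic 11 and 17 against wildtype 26 and 28. The female effect exceeded the male effect by 1.27 and by 2.08, with an adjusted p of 0.9998 for both in limma. These were the 2 of 14 member probe sets under an unadjusted 0.05, where 2.86% of all probe sets passed; after adjustment 0 of 14 passed, where 0% of all did. Both arrays of wildtype 29 gave 7.57 and 7.15 log2 for 1434342_at and 7.10 and 6.09 for 1419383_at. The transgenic females also had the highest Gapdh ratios, and the parts of that ratio and of the single wildtype female were not tested. The summed intensity of 5 adipocyte markers, cells that also make S100b, was 45154 to 59944 in transgenic and 37578 to 41412 in wildtype animals, without overlap. Fabp4 had the highest mean signal of the 5 and weighs most in that sum. Fabp4, Lep and Pparg did not overlap, where 11.3% of all probe sets tested did not. Adipoq overlapped (13.82 log2 in transgenic 11, 13.87 in wildtype 26). So did Cidec, lowest in transgenic 7 (9.40) and highest in wildtype 26 (10.73). Plin1 and Cfd, also listed, had no value. In males the summed intensity was 45154 and 55161 in transgenic 11 and 17 against 41412 and 37578 in wildtype 26 and 28. Transgenic males were thus higher in that sum but lower in S100b, and the part of adipocytes was not tested.

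Sox10, the transcription factor of the Schwann cell and melanocyte lineages, had 2 tested probe sets with estimates of opposite sign. Probe set 1424985_a_at gave intensities of 138, 200.1, 212 and 222 in transgenic 7, 84, 11 and 17, against 242, 184 and 120 in wildtype 26, 28 and 29. Wildtype 26 was the highest animal and wildtype 29 the lowest. The log2 means were 7.73 ± 0.28 in the transgenic and 7.62 ± 0.45 in the wildtype animals (SD, n = 4 and 3), a difference of 0.10 (95% interval -0.50 to 0.71; limma adjusted p = 0.907). Wildtype 29 had 6.36 on its first array and 7.92 on its second, a gap of 1.56 and the widest of the members tested, and with the second array alone the difference was -0.16.

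Probe set 1451689_a_at of Sox10 gave 6.07, 8.22, 6.60 and 8.12 log2 in transgenic 7, 84, 11 and 17, against 7.72, 7.42 and 7.77 in wildtype 26, 28 and 29. A pair of transgenic animals lay above and a pair below all 3 wildtype animals. The difference was -0.39 (95% interval -1.57 to 0.80; limma adjusted p = 0.799), and 0.0063 without transgenic 7. The third Sox10 probe set, 1425369_a_at, was below the filter at 4.90 to 5.19 log2 in transgenic and 4.96 to 6.17 in wildtype animals, near the 4.45 that an intensity of 0 gives.

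Ncam1, the neural cell adhesion molecule, had 7 probe sets, and 2 passed the filter. Probe set 1426864_a_at gave intensities of 378, 407, 276 and 189 in transgenic 7, 84, 11 and 17, against 128, 248 and 280.0 in wildtype 26, 28 and 29. The transgenic females were the highest animals and wildtype 26 the lowest. The log2 means were 8.33 ± 0.47 in the transgenic and 7.85 ± 0.54 in the wildtype animals (SD, n = 4 and 3), and the difference of 0.48 was the highest among the members tested (95% interval -0.26 to 1.23; limma adjusted p = 0.584). It was 0.17 without wildtype 26 (limma adjusted p = 0.810) and 0.04 with the Gapdh ratio in the model (adjusted p = 0.99999). Probe set 1426865_a_at gave 8.05, 8.35, 8.64 and 5.69 log2 in transgenic 7, 84, 11 and 17, against 7.95, 8.58 and 8.04 in wildtype 26, 28 and 29. Transgenic 17 alone was far below the other animals, and the difference of -0.50 (95% interval -1.95 to 0.94; limma adjusted p = 0.782) was 0.16 without it.

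The other 5 Ncam1 probe sets were below the level filter and were not tested. Probe set 1450438_at was the only one of the 21 member probe sets whose groups did not overlap, where 11.3% of the 27022 probe sets tested showed no overlap. It gave 5.19, 5.53, 4.97 and 4.92 log2 in transgenic 7, 84, 11 and 17, against 6.49, 6.79 and 5.67 in wildtype 26, 28 and 29. Every transgenic animal was below every wildtype animal, by a mean of -1.17, but both arrays of wildtype 29 gave 6.27 and 5.07, and the second lies among the transgenic animals. The pseudocount sets much of its size: with one 4 times as large the difference was -0.55. For 1421966_at, 1425126_at, 1439556_at and 1450437_a_at the differences were 0.10, 0.57, -0.08 and -0.16, with overlapping groups. Probe set 1450437_a_at, with a mean of 6.43, lay just outside the threshold of 6.45.

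The order of the animals was set side by side for the 5 genes measured. By the probe set with the highest mean signal of each gene, wildtype 26 and transgenic 17 held the first and second rank in Pmp22, Mbp and Sox10, and wildtype 29 was the lowest. For Sox10 that last rank came from the first array of wildtype 29, since its second gave 7.92, just under the 7.93 of transgenic 17. S100b was also lowest in wildtype 29 but highest in transgenic 7 and 84, and Ncam1 ran the other way, with transgenic 17 and wildtype 26 lowest. Over the 7 animals Pmp22 and Mbp had a Pearson r of 0.88 (exact permutation p = 0.0131, adjusted 0.131 over 10 pairs) and a Spearman rho of 0.79 (exact permutation p = 0.0480, adjusted 0.240). Without wildtype 26 and 29, the animals farthest from the Mbp median, r was 0.69. Pmp22 and Sox10 had an r of 0.77 (exact permutation p = 0.0446, adjusted 0.223) and a rho of 0.79 (exact permutation p = 0.0480, adjusted 0.240), and r was 0.50 without transgenic 17 and wildtype 29. The other 8 pairs had r between -0.56 and 0.63 with adjusted exact permutation p of at least 0.313, and the relation of Mbp with Sox10 (r = 0.63) was -0.07 without wildtype 26 and 29.

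The same animals stood apart in genes of other skin cells. Summed intensity of 6 hair shaft genes was 106951, 95380, 42285 and 6930 in transgenic 7, 84, 11 and 17, against 724.5, 116993 and 123132 in wildtype 26, 28 and 29. Transgenic 17 and wildtype 26 were thus the lowest in hair shaft genes. They were also the lowest in the mean of 7 melanocyte genes, with 8.43 log2 in transgenic 17 and 8.72 in wildtype 26 against 9.49 to 10.88 in the other animals. Of these genes, Mlana was lowest in transgenic 7 (9.06) and Kit in wildtype 28 (8.80). By summed intensity transgenic 17 and wildtype 26 were the 2 highest in 5 of 13 lists of other cell types: keratinocyte, fibroblast, endothelium, macrophage and Langerhans cell, and T and natural killer cell. By mean log2 the fibroblast list did not follow, with transgenic 11 (14.40) above transgenic 17 (14.38). Not every gene followed its list: Pdgfra was highest in transgenic 84 (12.04 log2), and Krt14 (14.34) and H2-Aa (14.18) in transgenic 7. Wildtype 29 was the lowest in 7 of the 13. These include the central myelin list, where only Opalin passed the level filter and Mag is shared with the Schwann cell markers. The part of these lists in the values of Pmp22, Mbp and Sox10 was not tested.

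**Figure D3:**
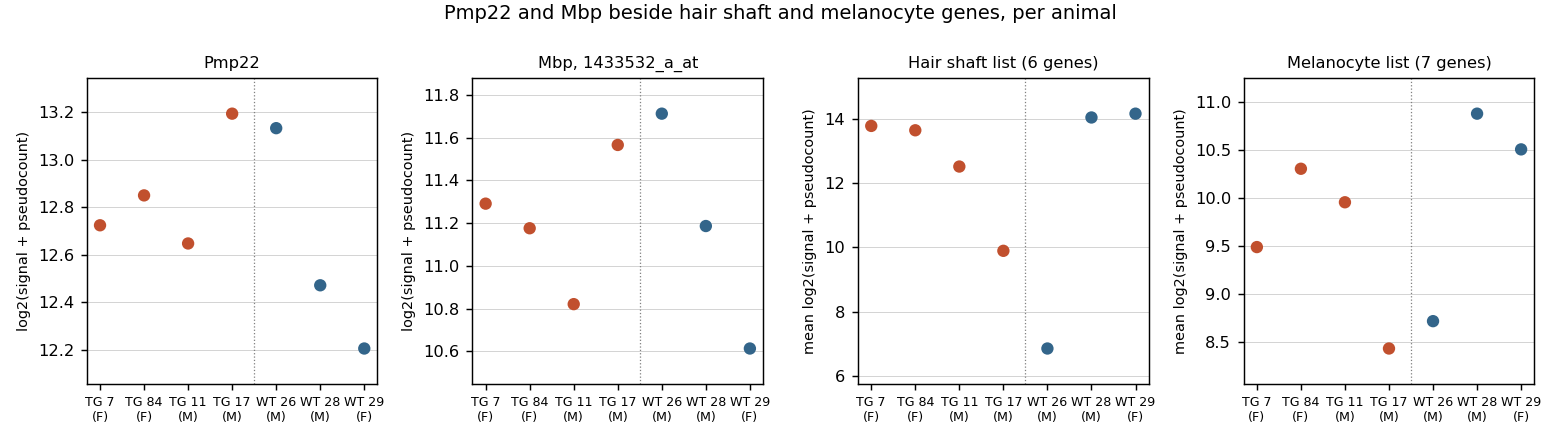
Log2 signal of Pmp22 and of Mbp (1433532_a_at), and mean log2 signal of 6 hair shaft and 7 melanocyte genes (y axes), in each of 4 transgenic (red) and 3 wildtype (blue) animals (x axes, F female, M male). Transgenic 17 and wildtype 26 are highest in Pmp22 and Mbp and lowest in both lists.

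Genes with the pattern most like each member over the 7 animals were taken by Pearson r among all probe sets tested, as a description without a test. The highest r among so many probe sets over 7 animals is high by selection. These matches therefore do not show a shared function or cell type. For Pmp22 they were Fcgr2b (r = 0.996), an inhibitory Fc receptor, and Clec10a (0.99), a lectin of macrophages. For Mbp they were Prkd1 (0.99), a protein kinase, and Kcna2 (0.99), a potassium channel known from the juxtaparanodes of myelinated axons. For Sox10 they were Crtap (0.98), which takes part in collagen modification, and Cd86 (0.98), a costimulatory molecule of antigen-presenting cells. For S100b they were Asb15 (0.99) and 9530057J20Rik (0.99), and for Ncam1 Taf13 (0.99) and Clns1a (0.99).

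A wider list of peripheral glia genes by role had 55 genes with probe sets, and 47 of them had at least 1 of the 75 probe sets that passed the filter. Limma called 0 of the 75 after adjustment (lowest adjusted p = 0.206), and 15 had an unadjusted p under 0.05, 7 higher and 8 lower in transgenic skin, where 11.7% of all probe sets passed. The groups did not overlap in 7 of the 75, 1 higher and 6 lower, where 11.3% of all showed no overlap. Differences were above 0 for 38 and below 0 for 37, with a median of 0.0051. The count at an unadjusted 0.05 was 3 with the Gapdh ratio in the model, where 3.15% of all probe sets passed, and 3 without transgenic 7 and 84, where 5.03% did. Of the 75 differences, 30 changed sign with the Gapdh ratio in the model.

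No compact myelin gene besides the members passed the test: Cd9, a tetraspanin that many cells carry, differed by -0.12, Mal, a proteolipid of membrane sorting, by 0.0051 (1417275_at) and Pllp (plasmolipin) by -0.41. Mal 1432558_a_at differed by -0.39. The model with the Gapdh ratio gave -0.31 for Mal 1417275_at and -0.0044 for Pllp. Cd9 was at 13.12 to 13.19 log2 in transgenic and 13.22 to 13.33 in wildtype animals, without overlap. All 3 genes had an adjusted p of at least 0.608 by limma. Of the lipid enzymes of myelin, Fa2h, which hydroxylates sphingolipid fatty acids, differed by 0.34, Fasn by 0.06, Aspa by 0.63 and Ugt8a, the galactosylceramide synthase, by -0.03 (0.083 with the Gapdh ratio in the model). Skin makes sphingolipids and fatty acids in other cells too, so these levels are not those of myelin alone. The lowest adjusted p among the 5 lipid probe sets was 0.396.

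Of the adhesion and junction genes, Cdh1 differed by 0.11, Cnp (1437341_x_at) by -0.07 and Nfasc (1436205_at) by 0.76, the last with overlapping groups and an adjusted p of 0.48 by limma. Other tested probe sets gave -0.49 (1418980_a_at) and -0.05 (1449296_a_at) for Cnp and -0.05 (1456068_at) for Nfasc. The model with the Gapdh ratio gave -0.17 for Cdh1 and 0.89 for Cnp 1449296_a_at. For Nfasc it gave 0.037 (1436205_at) and 0.44 (1456068_at). Cadm4, an adhesion molecule by which Schwann cells contact axons and which epithelia also carry, gave 7.89, 7.42, 8.10 and 7.69 log2 in transgenic 7, 84, 11 and 17, against 8.25, 9.05 and 9.21 in wildtype 26, 28 and 29. All transgenic animals were below all wildtype animals, by a mean of -1.07 (limma adjusted p = 0.301). With the Gapdh ratio in the model the difference was -0.73 (limma adjusted p = 0.99999).

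The receptors of the outer Schwann cell membrane showed that probe sets of 1 gene can disagree. Dag1, the dystroglycan that binds laminin, differed by 0.11 for 1426778_at, by -0.86 for 1426779_x_at, by -1.003 for 1456131_x_at and by -2.24 for 1423872_a_at. The last gave 4.93, 6.45, 9.22 and 8.47 log2 in transgenic 7, 84, 11 and 17, against 9.67, 9.67 and 9.16 in wildtype 26, 28 and 29. The lowest values were those of both transgenic females, which had the highest Gapdh ratios. With that ratio in the model the difference was 0.42, and the part of the ratio was not tested. The same model gave 0.18 for 1456131_x_at and -0.28 for 1426779_x_at. Itga6, a laminin receptor subunit also of basal keratinocytes, differed by 0.43 for 1422445_at and by -1.26 for 1422444_at (limma adjusted p = 0.206). Probe set 1422444_at was at 8.48 to 9.20 log2 in transgenic and 9.84 to 10.27 in wildtype animals, and its difference was -0.72 with the Gapdh ratio in the model. Utrn, the dystrophin relative utrophin, differed by 0.45 for 1452222_at and by -0.70 for 1427569_a_at, and by 0.078 and 0.00016 with the Gapdh ratio in the model.

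Among transcription factors, Egr2, which drives myelination, differed by 0.05 (1427683_at) and its partner Nab1 by -0.06 (1417624_at) and -0.40 (1448781_at). In the model with the Gapdh ratio these differences were -0.15, 0.093 and 0.097. Egr2 1427682_a_at differed by 0.16. Zeb2, a repressor of inhibitors of myelination, differed by 0.65 for 1434298_at and by -0.60 for 1422748_at, and by 0.48 and 0.25 with the ratio in the model. Pou3f1, which acts in promyelinating Schwann cells and also in keratinocytes, gave 7.45, 7.71, 8.76 and 7.56 log2 for 1422068_at in transgenic 7, 84, 11 and 17, against 8.90, 8.61 and 9.07 in wildtype 26, 28 and 29. Transgenic 11 lay within the wildtype range and the other transgenic animals below it, with a difference of -0.99 (limma adjusted p = 0.340). With the Gapdh ratio in the model it was -0.23. Pou3f1 1460038_at differed by -0.45 with overlapping groups (limma adjusted p = 0.425). Without transgenic 11, limma called 4 of the 75 probe sets, where 1.04% of all probe sets were called, all 4 lower in transgenic skin: Pou3f1 1422068_at (-1.28, adjusted p = 0.0377), Itga6 1422444_at (-1.40, adjusted p = 0.0348), and Dag1 1426779_x_at (-1.07, adjusted p = 0.0378) and 1456131_x_at (-1.42, adjusted p = 0.0429). The 3 transgenic animals left in that comparison are those with Gapdh ratios of 2.23 or more, and the part of the ratio there was not tested.

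Of the signalling genes, Erbb3, the neuregulin receptor of Schwann cells that epithelia also carry, differed by 0.04 and Adgrg6, the adhesion receptor needed for myelination, by 0.47 (1437409_s_at). Both turned in the model with the Gapdh ratio, Erbb3 to -0.36 and Adgrg6 to -0.24. Ngfr, the low-affinity neurotrophin receptor of non-myelinating and immature Schwann cells and of nerve terminals, passed the filter by 1454903_at alone. That probe set gave 7.45, 7.69, 7.61 and 8.15 log2 in transgenic 7, 84, 11 and 17, against 8.68, 8.60 and 8.63 in wildtype 26, 28 and 29. The wildtype animals lay close together and all transgenic animals were below them, by a mean of -0.91 (limma adjusted p = 0.294). With the Gapdh ratio in the model the difference was -0.82 (limma adjusted p = 0.99999). The Ngfr probe sets 1421241_at and 1450177_at were below the filter and not tested, with differences of 0.0015 and -0.13. Of the genes of immature and non-myelinating glia, Apod, a lipocalin, differed by -0.50 (1416371_at), Ptn, the growth factor pleiotrophin, by 0.19 (1448254_at; -0.25 with the Gapdh ratio in the model) and Sostdc1, an inhibitor of BMP and Wnt signals, by 0.82 (limma adjusted p = 0.371). The 21 probe sets of that role had a median difference of 0.18, with 13 above 0 and 8 below.

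**Figure D4:**
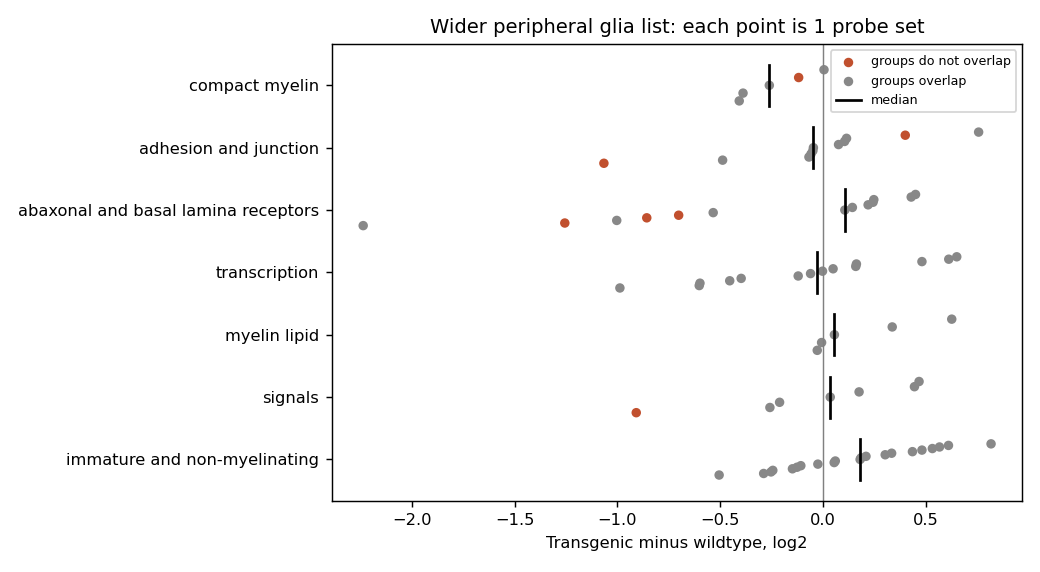
Difference in log2 signal, transgenic minus wildtype (x axis), of the 75 probe sets of the wider peripheral glia list by role (y axis), 1 point per probe set, with vertical bars at each role's median. Red points mark the 7 probe sets whose groups do not overlap, 1 higher (Mpdz) and 6 lower (Cd9, Cadm4, Dag1, Itga6, Utrn and Ngfr); Sox2 stands in 2 roles.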

How the data were processed

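Total RNA of belly skin was labelled by the one-cycle protocol and hybridised to Affymetrix arrays, per the labels. The deposited signal intensity is on a linear scale and was made by the authors with MAS5, per the submitters' processing notes, whose version is not given in the sources used here. With 2% of values trimmed from either end, the mean of each array was 500.003. No scan date or batch was named. Of 45101 probe sets, 64 controls were left out; of the other 45037, 34945 had 1 gene symbol in the platform annotation, 932 several and 9160 none, and only those with 1 were named.

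The deposited intensity plus 21.8 (its 20th percentile) was put on the log2 scale without further normalization, and both arrays of wildtype 29 were averaged, which gave 4 transgenic and 3 wildtype animals. Nothing says how the animals were bred, so p-values measure the spread between these animals. The 27022 probe sets with a mean of at least 6.45 (40th percentile) were tested with limma 3.58.1 in R 4.3.3 (empirical Bayes with a trend, 2-sided, Benjamini-Hochberg over all tested, threshold 0.05), with group alone, and with group, sex and their product. The code was tested on simulated data. Exact permutation tests used scipy 1.17.1. Promoter windows are RefSeq's; 3 member genes had an entry.

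The member genes, lists and tests were chosen with earlier results of these data known. All member probe sets were described; from each role of the wider list, the 2 genes with the highest mean, the gene with the largest difference in each direction and any gene called; and the 2 genes of most similar pattern to each member. Further probe sets of Dag1, Itga6, Utrn, Nab1 and Zeb2, and Mpdz, were added after their values were seen. Alternatives were quantile normalization, pseudocounts of 5.45 and 87.2, no level filter or one at the 60th percentile, other variance models, sex or the Gapdh ratio as a covariate, each array of wildtype 29 alone, and animals left out.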

Additional observations from a re-analysis of the deposited data

How the results depend on the processing

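No member probe set was called by limma under any of 19 alternatives, where at most 1 had an unadjusted p under 0.05, and over 262 differences the adjusted p lay between 0.191 and 0.99999. Of 353 member differences recomputed, 23 in 12 probe sets changed sign, 18 of them in 9 tested probe sets. Of the 5 in untested ones, Mbp 1425263_a_at was at 0.59 and Ncam1 1439556_at at 0.075 without transgenic 7 and 84, Sox10 1425369_a_at at 0.0038 without wildtype 26, and Ncam1 1439556_at at 0.14 and 0.0095 without transgenic 7 and 17 in turn. Ncam1 1450438_at was at -0.55 with a pseudocount of 87.2. Adding the Gapdh ratio to the model turned the sign for Mbp 1425264_s_at (-0.058), 1433532_a_at (-0.18) and 1456228_x_at (-0.27) and S100b 1434342_at (-0.30). With the second array of wildtype 29 it turned for S100b 1419383_at (0.039) and Sox10 1424985_a_at (-0.16), and without transgenic 7 and 84, among tested probe sets, for Mbp 1456228_x_at (-0.023) and S100b 1434342_at (-0.073). With each animal left out, differences ranged from -0.24 to 0.31 for Mbp 1433532_a_at, -0.16 to 0.59 for 1454651_x_at and -0.17 to 0.37 for 1456228_x_at, from -0.41 to 0.33 for S100b 1419383_at, from -0.14 to 0.31 for Sox10 1424985_a_at and -0.71 to 0.0063 for 1451689_a_at, and from -0.82 to 0.16 for Ncam1 1426865_a_at. Those that kept their sign but moved included Ncam1 1426864_a_at (0.17 to 0.69), Mbp 1451961_a_at (-1.21 to -0.41) and Pmp22 (0.052 to 0.52). The count of the wider list called ranged from 0 to 4, with 4 only without transgenic 11, and was 0 under the other alternatives. The cause was not tested. The interaction with sex stayed at 0 called under the 5 alternatives run. The Gapdh difference of 2.52 was 2.04 to 3.23 with animals left out, and that of Actb was 0.72 (exact permutation p = 0.114). No paired analysis was possible because the groups share no animal numbers. Dim probe sets near the pseudocount, and 3 wildtype animals, limit what could be detected.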
